A study of Mus musculus with 8 samples.

Results

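Interferon-stimulated genes were followed in lung RNA of mice given lipopolysaccharide (LPS) alone or tangeretin (Tan) before LPS. The set was a fixed list of 36 gene symbols, made up of antiviral effectors, nucleic acid sensors and the factors that switch them on. Of the 36, 34 were analysed among 24584 genes, and Mx1 and Mx2 were not analysed here. LPS, a cell wall component of Gram-negative bacteria, was taken from Escherichia coli O111:B4 and injected intraperitoneally at 5 mg/kg. Tangeretin, a polymethoxylated flavone of citrus peel, was injected at 50 mg/kg by the same route, 30 min ahead of LPS. All animals were male ICR mice, an outbred stock, of 6 to 8 weeks and with the wild type genotype, and lungs were taken 12 h after LPS. There were 4 samples in the LPS group and 4 in the LPS + Tan group. Both groups carried LPS, and no group without LPS was used, so the induction of these genes by LPS itself was not measured.

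Type I interferons signal through the receptor chains Ifnar1 and Ifnar2 and the kinases Jak1 and Tyk2. The kinases activate Stat2, which joins Irf9 in a complex named ISGF3, and this complex binds a DNA element called the interferon-stimulated response element (ISRE). LPS reaches the pathway through Tlr4 and the adaptor Ticam1, which activate Irf3 and lead to interferon beta, whereas interferon gamma acts through another element, the gamma-activated site (GAS). In lung, epithelial cells, endothelial cells and myeloid cells can all respond.

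Promoter stretches of 6 members are shown because they carry the elements through which these genes are known to respond. Sequences are RefSeq promoters of build GRCm38.p6, written 5′ to 3′ on the strand of the gene. Capitals mark the ISRE core, which is GAAA, any 2 bases and GAAA, and which reads as TTTC, any 2 bases and TTTC where it lies on the other strand. In Irf1 they mark the GAS, which is TTC, any 3 bases and GAA. Isg15 is at chr4:156200856-156200915 on the minus strand, Ifit3 at chr19:34583365-34583424 and Ifit3b at chr19:34607761-34607820 on the plus strand, Oas1a at chr5:120907526-120907585 and Oas1g at chr5:120887614-120887673 on the minus strand, and Irf1 at chr11:53769898-53769957 on the plus strand.
Isg15: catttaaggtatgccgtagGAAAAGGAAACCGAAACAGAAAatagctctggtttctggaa
Ifit3: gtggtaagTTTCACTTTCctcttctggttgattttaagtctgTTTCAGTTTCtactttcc
Ifit3b: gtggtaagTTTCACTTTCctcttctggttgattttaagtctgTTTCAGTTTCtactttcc
Oas1a: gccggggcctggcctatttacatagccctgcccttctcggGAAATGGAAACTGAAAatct
Oas1g: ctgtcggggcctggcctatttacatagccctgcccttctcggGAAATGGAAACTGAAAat
Irf1: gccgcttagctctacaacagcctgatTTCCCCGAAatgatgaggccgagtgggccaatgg

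Isg15 held 3 overlapping ISRE cores between 78 and 57 bases before its start. The pairs of cores in Ifit3 and Ifit3b lay in the same 60 bases, and those of Oas1a and Oas1g overlapped each other just before the start. Windows from 250 bases before to 50 bases after the start were found for 27 of the 34 members, and both strands were searched. The ISRE core was in the windows of 13 of these 27 members (48.1%), and in those of 1079 of all 27025 genes with a window (3.99%). The holders were Stat2, Ifih1, Eif2ak2, Ifit1, Ifit3, Ifit3b, Oas1a, Oas1g, Oas3, Isg15, Bst2, Rsad2 and Trim30a. Of their 22 matches, 19 lay wholly upstream of the start, and in 7 members a window held 2 or more. The GAS was in 8 of 27 members (29.6%) against 9.55% of genes, namely Irf1, Eif2ak2, Ifit2, Oas1a, Bst2, Samhd1, Isg20 and Ifi35. In Bst2 the GAS overlapped an ISRE core. A match describes letters only and is not a measured binding site, and Parp9, Parp14, Zbp1, Usp18, Rtp4, Oas2 and Dhx58 had no window in the table used.

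**Figure D1:**
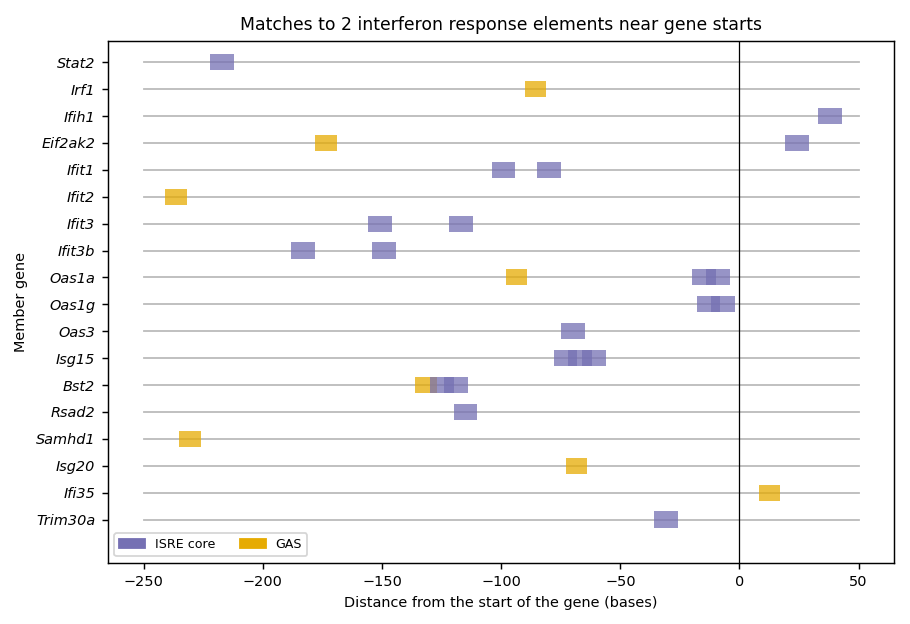
Positions of ISRE core matches (violet) and GAS matches (yellow) in the first RefSeq promoter window of each member that held one, by distance in bases from the gene start. Most ISRE matches lie upstream of the start, and those of Isg15, Oas1a, Oas1g and Bst2 overlap each other.

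Every member was well expressed at 12 h after LPS. Each of the 34 had at least 256 counts in every sample, and the highest count was 53363, so all 34 passed the filter on low counts whichever group was higher. Per kilobase of gene, in FPKM (fragments scaled to gene length and library depth), the mean level over the 8 samples ran from 7.21 for Oas1g to 581 for Bst2. The median over members was 60.1 FPKM, against 5.05 over the 15706 genes tested, and 33 of 34 members had a mean above 10 FPKM, against 34.8% of genes. On this scale Bst2 was followed by Irf7 at 324, Isg15 at 258, Samhd1 at 222 and Irf1 at 179.9. Of the 33 pairs of neighbours in this order, 32 overlapped in their sample values. Bst2 was at 593 ± 170 FPKM (SD, n = 4) in the LPS group and Irf7 at 350 ± 50.4 (SD, n = 4).

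**Figure D2:**
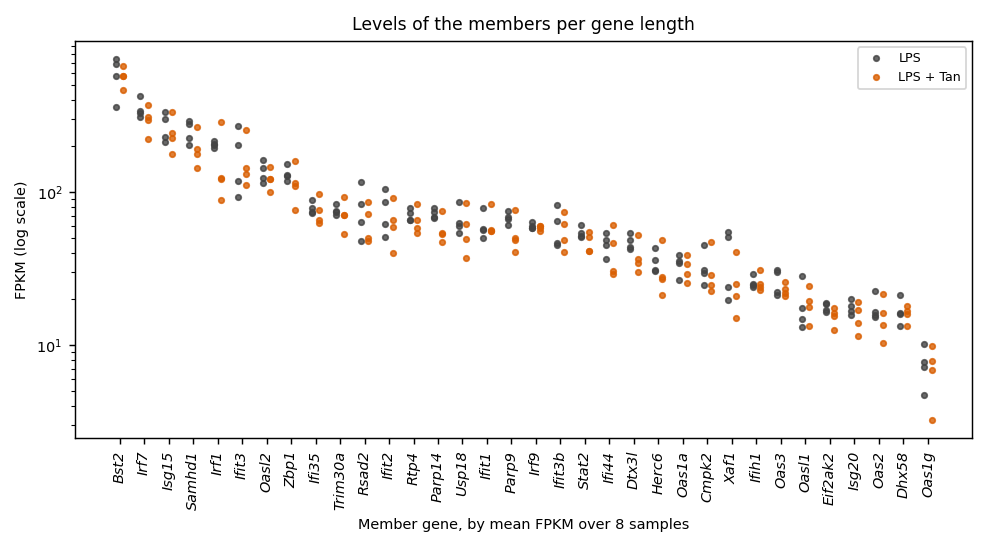
FPKM of each member in each of the 8 samples, on a log scale, with members ordered by mean FPKM over all samples; grey points are LPS and orange points LPS + Tan. Levels span from 7.21 FPKM for Oas1g to 581 for Bst2, and the points of both groups overlap in every member.

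Total counts lay between 38895654 and 39931970 per sample, so depth hardly differed. Lung markers were present in both groups, with summed CPM (counts scaled to library depth by TMM) of 21533 to 29851 in LPS and 19760 to 30624 in LPS + Tan for epithelium and of 3333 to 4093 and 3831 to 4340.1 for endothelium. Over all genes, edgeR called 0 at an adjusted p below 0.05 (lowest adjusted p 0.497, quasi-likelihood test, Benjamini-Hochberg), 353 lower and 451 higher at an unadjusted p below 0.05, and 102 at the study's thresholds, a p under 0.05 before adjustment with a log2 fold change beyond 1 in either direction. DESeq2 called 35 at an adjusted p below 0.05. The methods describe groups of mice, and no label ties a library to 1 animal, so p-values measure the spread between these samples.

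The members were lower on average in LPS + Tan, by little and unevenly. Of the 34, 33 had a lower fitted level in LPS + Tan (97.1%, against 48.2% of all genes tested), and Ifit1 was at a log2 fold change of 0.016. Fold changes are log2 values of LPS + Tan against LPS, so that -1 is a 2-fold lower level. The median over members was -0.20, against 0.007 over all genes, and the range was -0.60 for Xaf1 to 0.016. The list was proposed with results of this same contrast known, so these counts describe the members and test nothing. In bulk RNA, fewer responding cells and less RNA per cell cannot be told apart.

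None of these differences passed correction. By edgeR's quasi-likelihood test, 0 members reached an adjusted p below 0.05 (Benjamini-Hochberg; lowest 0.924, highest 0.998), and by DESeq2 also 0 (lowest 0.652), with backgrounds of 0% and 0.226% of genes. At an unadjusted p below 0.05 and lower, edgeR found 1 member, Parp14 (background 2.25% of genes, and 2.87% for higher, where it found 0), and DESeq2 also found only Parp14 (background 2.08%). At the study's thresholds there were 0 members, with 0.649% of all genes called. The median standard error of a member's log2 fold change, 0.20, was as large as the median change itself, and only 3 members had a change of more than 2 standard errors. In 0 members did the CPM of the groups fail to overlap, against 2.73% of genes.

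Single samples set much of the spread. Per sample, the median log2 CPM of the members relative to their LPS mean was -0.14, -0.11, 0.013 and 0.26 in LPS replicates 1 to 4. In LPS + Tan replicates 1 to 4 it was -0.52, -0.34, -0.19 and 0.25. LPS replicate 4 was the highest of its group in 32 of 34 members (23.3% of all genes), and LPS + Tan replicate 4 in 29 of 34 (30.4% of all genes). LPS + Tan replicate 1 was the lowest of all 8 samples in 25 members, against 15.4% of genes. Every member was below its LPS mean in LPS + Tan replicate 1, 31 were in replicate 2, 30 in replicate 3 and 5 in replicate 4.

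**Figure D3:**
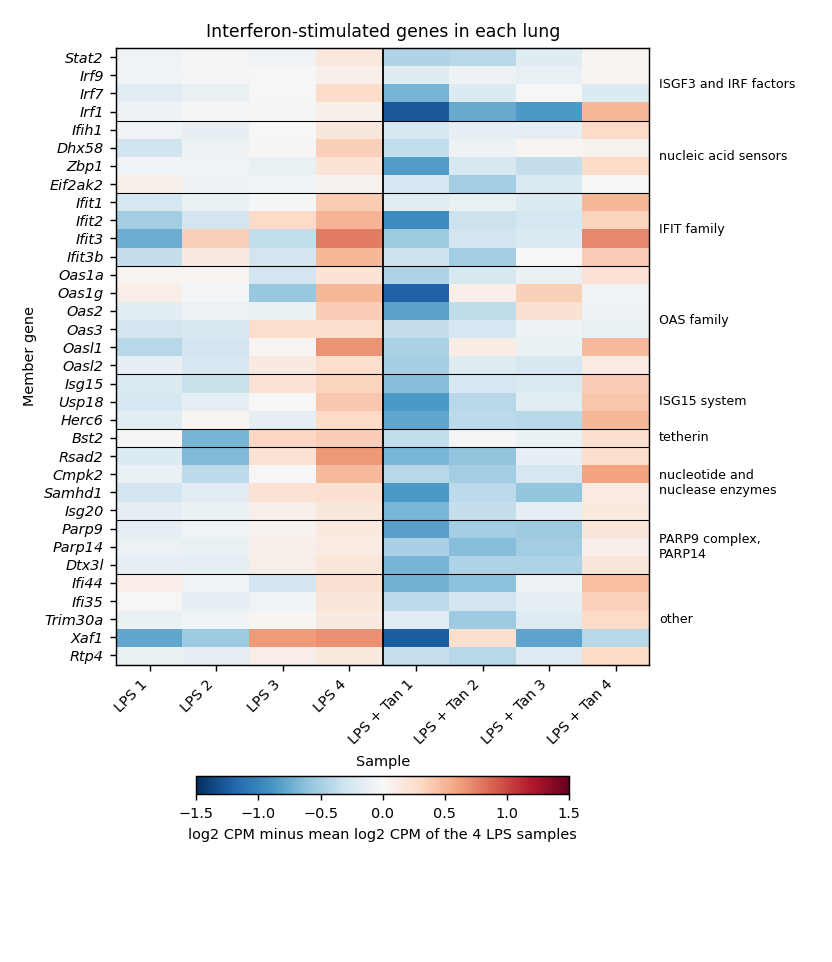
Log2 CPM of each member in each sample, relative to the mean log2 CPM of the 4 LPS samples (blue lower, red higher), with members grouped by role. The columns of LPS + Tan replicates 1 to 3 are mostly blue, and those of LPS replicate 4 and LPS + Tan replicate 4 are mostly red.

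The members' average therefore moved with the samples included. Leaving out LPS + Tan replicate 4 gave a median log2 fold change of -0.34, with 34 of 34 members lower (background 48.3%) and 16 at an unadjusted p below 0.05 (background 4.56%). Leaving out LPS replicate 4 instead gave -0.089 with 25 members lower (background 48.4%), and leaving out LPS + Tan replicate 1 gave -0.076 with 29 lower (background 49.7%). Both had 0 members lower at an unadjusted p below 0.05, against 2% and 1.33% of genes. Without LPS replicate 3 or LPS + Tan replicate 3 the count at that p was 0 too, against 1.71% and 1.88%. With shares this small over all genes, a count of 0 among 34 members is close to the background. At an adjusted p below 0.05, edgeR called 0 members with any 1 sample left out. In 32 of 34 members, all but Stat2 and Parp14, the log2 fold change moved by over 1.5 times or turned sign with at least 1 of the samples left out. The within-group SD of the members' log2 CPM had a median of 0.23 in LPS and 0.38 in LPS + Tan, against 0.17 and 0.22 over all genes.

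**Figure D4:**
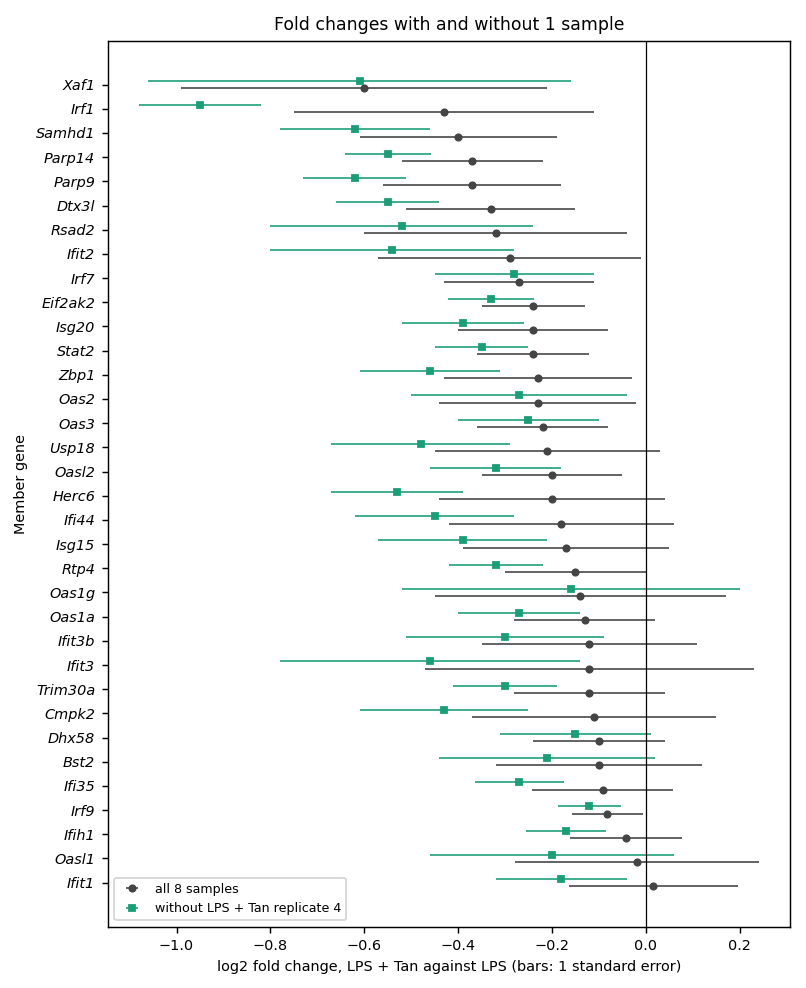
Log2 fold change of each member, LPS + Tan against LPS, with 1 standard error, from all 8 samples (grey circles) and without LPS + Tan replicate 4 (green squares). With all samples 17 of 34 changes are larger than their standard error, and without that replicate Irf1 moves from -0.43 to -0.95.

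Among the ISGF3 and IRF factors, 4 of 4 were lower, with a median log2 fold change of -0.26. With 1 sample left out, that median lay between -0.32 without LPS + Tan replicate 4 and -0.16 without LPS + Tan replicate 1. Irf7, the factor that drives the interferon alpha genes, was at 611, 629, 679 and 826 CPM in LPS and 420.2, 593, 677 and 589 CPM in LPS + Tan. Irf1, an early factor induced mainly through the GAS shown above, was at 664, 686, 709 and 735 CPM in LPS and 289, 415, 385 and 989.8 CPM in LPS + Tan. For Irf7, 3 LPS + Tan samples were below every LPS sample and replicate 3 was not. For Irf1, replicates 1 to 3 were below every LPS sample and replicate 4 was the highest of all 8. The fitted log2 fold change was -0.27 ± 0.16 (SE) for Irf7, from -0.36 to -0.15 with 1 sample left out. That of Irf1 was -0.43 ± 0.32, and it was -0.95 ± 0.13 without LPS + Tan replicate 4 and -0.23 without LPS + Tan replicate 1. Without LPS + Tan replicate 4, edgeR's quasi-likelihood test gave Irf1 the lowest adjusted p of any member, 0.0782. Stat2 and Irf9, subunits of ISGF3, were at -0.24 and -0.082.

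The nucleic acid sensors were lower in 4 of 4, with a median of -0.17. Zbp1, which binds Z-form nucleic acids and can start necroptosis, was at 281, 279, 268 and 334 CPM in LPS and 161, 245, 225 and 356 CPM in LPS + Tan. Ifih1, the cytosolic sensor of long double-stranded RNA also called MDA5, was at 141, 134, 147 and 165 CPM in LPS and 125, 135, 133 and 178 CPM in LPS + Tan. Replicate 4 of LPS + Tan was the highest sample for both genes, and for Zbp1 the other 3 were below all LPS samples. Log2 fold changes were -0.23 ± 0.20 for Zbp1 and -0.042 ± 0.12 for Ifih1. Eif2ak2, the RNA-activated kinase PKR that halts translation, was at -0.24, and Dhx58, the helicase LGP2 that modulates RNA sensing, at -0.10. Leaving out 1 sample moved the sensors' median from -0.25 (LPS + Tan replicate 4) to -0.048 (LPS + Tan replicate 1), and the change of Zbp1, with the same samples, from -0.46 to -0.078.

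The IFIT proteins bind foreign RNA and block its translation, and their genes varied widely within groups. Ifit2 was at 225, 267, 394 and 461 CPM in LPS and 168, 258, 270 and 408 CPM in LPS + Tan. Ifit3 was at 253, 543, 329 and 725 CPM in LPS and 292, 352, 365 and 699 CPM in LPS + Tan. In both groups replicate 4 was the highest sample of each gene, and the groups overlapped widely. The log2 fold change was -0.29 ± 0.28 for Ifit2, from -0.54 without LPS + Tan replicate 4 to -0.10 without LPS replicate 4, and -0.12 ± 0.35 for Ifit3, from -0.46 to 0.19 with the same samples left out, and the family median was -0.12 with 3 of 4 lower. That median was -0.38 with 4 lower without LPS + Tan replicate 4 and turned to 0.12 with 1 lower without LPS replicate 4. Ifit3b, at -0.12, is a near copy of Ifit3. Their coding sequences were identical at 1201 of 1212 bases (99.1%), and 31.7% of the 100-base stretches of the Ifit3 transcript also occur in other transcripts, here Ifit3b, so reads may be split between them. The sum of both was 355, 687, 436 and 909.5 CPM in LPS and 397, 443, 496 and 869 CPM in LPS + Tan, so the sum overlapped as its parts did.

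Many proteins of the OAS family are enzymes that make short adenylate chains, which switch on the RNA-cutting enzyme RNase L. Oasl2 was at 393, 357, 472 and 514 CPM in LPS and 305, 377, 364 and 469 CPM in LPS + Tan. Oas1a was at 68.4, 68.1, 54.3 and 76.3 CPM in LPS and 48.1, 56.2, 62.1 and 77.3 CPM in LPS + Tan. LPS + Tan replicate 1 was the lowest of all samples for both, and the other LPS + Tan samples lay among the LPS values or, for Oas1a in replicate 4, just above them. The log2 fold change was -0.20 ± 0.15 for Oasl2, from -0.32 to -0.10 with 1 sample left out, and -0.13 ± 0.15 for Oas1a, from -0.27 to -0.037. All 6 of the family were lower, with a median of -0.17, from -0.23 for Oas2 through -0.22 for Oas3 and -0.14 for Oas1g to -0.018 for Oasl1, which turned to 0.016 with library totals in place of TMM scaling. Oas1a and Oas1g were identical at 96.7% of coding bases, and 40.9% of the 100-base stretches of Oas1a occur in other transcripts. The family median was -0.26 without LPS + Tan replicate 4 and -0.056 without LPS + Tan replicate 1. The sum of Oas1a and Oas1g was 84.1, 82.4, 64.2 and 97.1 CPM in LPS and 54.4, 71.9, 80.9 and 91.5 CPM in LPS + Tan.

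Isg15 is a ubiquitin-like protein, Herc6 the main enzyme that attaches it in mice, and Usp18 the protease that removes it and also dampens the interferon receptor. Isg15 was at 175, 161, 236 and 256 CPM in LPS and 130.4, 171, 174 and 262 CPM in LPS + Tan. Usp18 was at 97.2, 106, 116 and 154 CPM in LPS and 64.0, 87.4, 104 and 155 CPM in LPS + Tan. The 2 replicates numbered 4 were the highest of their groups for both genes and the groups overlapped. Fitted changes were -0.17 ± 0.22 for Isg15 (-0.39 to -0.035 with 1 sample left out), -0.21 ± 0.24 for Usp18 (-0.48 to -0.038) and -0.20 for Herc6, with a median of -0.20 that was -0.48 without LPS + Tan replicate 4 and -0.038 without LPS + Tan replicate 1. Of the 100-base stretches of Herc6, 20.9% also occur in another annotated transcript.

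Bst2, or tetherin, holds budding virus at the cell surface. It was at 475, 288, 582 and 606 CPM in LPS and 364, 462, 438 and 557 CPM in LPS + Tan, at a log2 fold change of -0.10 ± 0.22, which was -0.29 without LPS replicate 2 and turned to 0.022 without LPS replicate 4. Its lowest sample was LPS replicate 2, and all LPS + Tan samples lay within the LPS range.

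**Figure D5:**
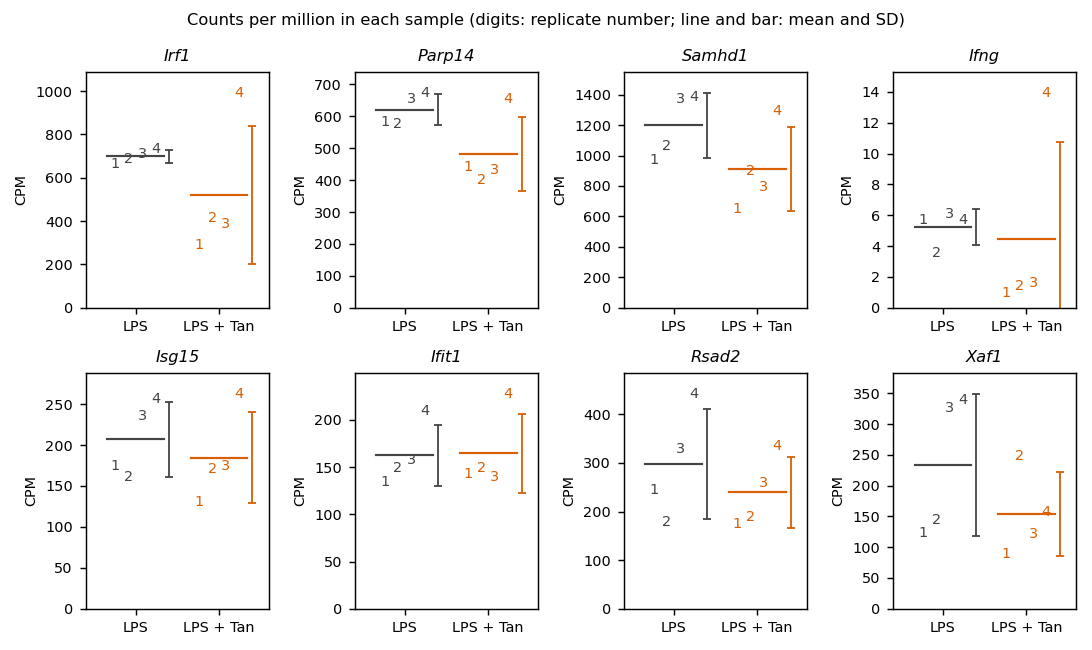
CPM of 7 members and of Ifng in each sample, with digits for the replicate number, a line for the group mean and a bar for 1 SD (n = 4), which for Ifng in LPS + Tan is cut at 0. For Irf1, Ifng and Ifit1 the LPS + Tan sample numbered 4 stands above all other samples, and for Parp14 and Samhd1 it lies inside the LPS range.

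Enzymes of nucleotides and nucleic acids were lower in 4 of 4, with a median of -0.28, which was -0.48 without LPS + Tan replicate 4 and -0.12 without LPS replicate 4. Samhd1, which breaks down deoxynucleotides, was at 972, 1064, 1371 and 1383 CPM in LPS and 652, 901, 791 and 1294 CPM in LPS + Tan. Rsad2, or viperin, makes a chain-terminating nucleotide, and was at 244, 179, 329 and 441 CPM in LPS and 175, 188, 259.6 and 334 CPM in LPS + Tan. For Samhd1, LPS + Tan replicates 1 to 3 were below every LPS sample and replicate 4 was inside the LPS range. For Rsad2 the groups overlapped. Log2 fold changes were -0.40 ± 0.21 for Samhd1 and -0.32 ± 0.28 for Rsad2. Without LPS + Tan replicate 4 they were -0.62 and -0.52. That of Samhd1 was -0.27 without LPS + Tan replicate 1, and that of Rsad2 was -0.068 without LPS replicate 4. Cmpk2, the mitochondrial nucleotide kinase whose start lies 12752 bases from that of Rsad2 on chromosome 12, was at -0.11, and Isg20, an exonuclease that degrades RNA, at -0.24.

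The genes of the PARP9 complex and Parp14 had the lowest median of the roles with 3 or more members, -0.37, which was -0.55 without LPS + Tan replicate 4 and -0.25 without LPS + Tan replicate 1. Parp14 adds ADP-ribose to proteins, and was at 583, 575, 655 and 672 CPM in LPS and 441, 399, 433 and 653 CPM in LPS + Tan. Parp9 pairs with the ubiquitin ligase Dtx3l, and was at 244, 259, 281 and 300.1 CPM in LPS and 154, 190.4, 186 and 308 CPM in LPS + Tan. Dtx3l was at 225, 223, 262 and 280.4 CPM in LPS and 152, 179, 178 and 279 CPM in LPS + Tan. In all 3 genes LPS + Tan replicates 1 to 3 were below every LPS sample, and replicate 4 reached the upper LPS values. Log2 fold changes were -0.37 ± 0.15 for Parp14, -0.37 ± 0.19 for Parp9 and -0.33 ± 0.18 for Dtx3l. For Parp9 it was -0.62 and -0.25, and for Dtx3l -0.55 and -0.23, with the same samples left out. For Parp14, edgeR's quasi-likelihood test gave an adjusted p of 0.924, with 0.0389 before adjustment. Its unadjusted p was over 0.05 without LPS replicate 3 or 4 or LPS + Tan replicate 1, 2 or 3. Parp9 and Dtx3l lie head to head on chromosome 16 and overlap by 682 bases at their starts, and since no strand is stated for the counting, reads from the overlap cannot be told apart.

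The remaining members were lower in 5 of 5, with a median of -0.15, which was -0.32 without LPS + Tan replicate 4 and -0.051 without LPS + Tan replicate 2. Ifi35, an interferon-induced leucine zipper protein, was at 108, 99.4, 103 and 122 CPM in LPS and 82.5, 88.3, 98.5 and 137 CPM in LPS + Tan. Trim30a, which restrains Toll-like receptor signalling, was at 293, 301, 319 and 344 CPM in LPS and 281, 214, 274 and 386 CPM in LPS + Tan. Both had 3 LPS + Tan samples below every LPS sample and replicate 4 above every one. Xaf1, a proapoptotic partner of XIAP, had the lowest log2 fold change of all members with all samples, -0.60 ± 0.39. It was -0.93 without LPS + Tan replicate 2 and -0.36 without LPS replicate 4, and without LPS + Tan replicate 4 Irf1 (-0.95) was lower than Xaf1 (-0.61). It was at 123, 144, 326 and 339 CPM in LPS and 89.5, 248, 121 and 157 CPM in LPS + Tan. LPS replicates 3 and 4 stood above all other samples of Xaf1, and the rest were mixed. Log2 fold changes were -0.092 ± 0.15 for Ifi35 and -0.12 ± 0.16 for Trim30a, with -0.27 and -0.30 without LPS + Tan replicate 4. That of Ifi35 was -0.0061 without LPS + Tan replicate 1, and that of Trim30a was -0.0045 without LPS + Tan replicate 2. Ifi44 was at -0.18 and Rtp4 at -0.15 with all samples.

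LPS + Tan replicate 4 was the highest of its group in 29 of 34 members, against 30.4% of all genes. Leaving it out therefore favours a separation of the groups in the members, and the share over all genes is no like comparison. Without it, the remaining LPS + Tan samples lay below every LPS sample in 13 members, against 4.6% of genes. With any of the other 7 samples left out, that held for 0 members, or for 1 (Irf7) without LPS + Tan replicate 3, against 1.78% to 4.52% of genes. The 13 members were Stat2, Irf9, Irf1, Zbp1, Eif2ak2, Herc6, Samhd1, Parp9, Parp14, Dtx3l, Ifi35, Trim30a and Rtp4. They include all 3 of the PARP group and none of the IFIT or OAS families. The SD of log2 CPM among LPS samples was 0.12 to 0.16 in the PARP group and 0.21 to 0.69 in the IFIT and OAS families. The median log2 CPM of the PARP group relative to its LPS mean was -0.70, -0.51, -0.52 and 0.18 in LPS + Tan, and -0.13, -0.11, 0.08 and 0.15 in LPS. That of the IFIT family was -0.43, -0.30, -0.22 and 0.44 in LPS + Tan, and -0.44, 0.015, -0.15 and 0.51 in LPS.

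Upstream of the members, type I interferon transcripts were at or near the floor of detection. Of 21 interferon genes listed, 6 were analysed here and 1 was tested. Ifnb1, interferon beta, had 1, 1, 1 and 2 counts in LPS and 1, 0, 4 and 0 in LPS + Tan, so a difference was not detectable at this depth. Ifng, interferon gamma, was the gene tested, at 5.70, 3.55, 6.06 and 5.68 CPM in LPS and 0.959, 1.42, 1.63 and 13.9 CPM in LPS + Tan. LPS + Tan replicates 1 to 3 were below every LPS sample and replicate 4 above every one. The log2 fold change of Ifng was -0.23 ± 0.74 with all samples and -1.97 without LPS + Tan replicate 4.

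Of 6 interferon receptor chains, 1 was lower, against 48.2% of all genes, and 5 were higher. By edgeR, 0 had an unadjusted p below 0.05. Ifnar1 was at 125 ± 11.2 CPM in LPS and 134 ± 15.9 in LPS + Tan (SD, n = 4), and Ifnar2 at 141 ± 2.8 and 138 ± 16.2. Ifnlr1, Ifngr2 and Il10rb had the lowest p of the list, at 0.27 ± 0.14, 0.14 ± 0.076 and 0.086 ± 0.078 (log2, SE). Each of these changes was within 2 standard errors of 0.

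Of 18 genes of JAK-STAT and IRF signalling, 13 were lower, against 48.2% of all genes, and 0 had an unadjusted p below 0.05 by edgeR. With 1 sample left out, 5 were lower at that p without LPS + Tan replicate 4, against 4.56% of genes, 1 without LPS + Tan replicate 2, against 5.06%, and 0 without any of the other 6. Without LPS + Tan replicate 4 or LPS replicate 1, 1 was higher at that p, and without LPS + Tan replicate 4 the number lower at any p was 11. Jak2, Irf2bp1 and Stat3, with the lowest p of this list, were at -0.21 ± 0.10, 0.19 ± 0.10 and -0.24 ± 0.16. Socs1, a feedback inhibitor of JAK kinases named after its values were seen, was at 25.8, 24.2, 33.9 and 28.4 CPM in LPS and 5.56, 10.5, 10.3 and 44.6 CPM in LPS + Tan. As for Irf1, LPS + Tan replicate 4 was the highest of all samples and the other 3 were below every LPS sample.

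Of 17 tested genes that act in the induction of type I interferon, 9 were lower, against 48.2% of all genes. At an unadjusted p below 0.05 by edgeR, 1 was lower, against 2.25% of all genes, and 1 higher, against 2.87%. These counts are near the background. Tlr3, a sensor of double-stranded RNA, was at 48.2 ± 6.1 CPM in LPS and 40.3 ± 3.31 in LPS + Tan, a log2 fold change of -0.26 ± 0.11. Ticam2, which links Tlr4 to Ticam1, was at 4.38 ± 0.648 and 6.33 ± 1.69 CPM, a log2 fold change of 0.53 ± 0.21. Ly96, the partner of Tlr4 in binding LPS, was at 0.30 ± 0.16. For all 3, edgeR's quasi-likelihood test gave an adjusted p of 0.924.

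A further 96 interferon-stimulated genes that are not members were listed, and 86 were tested. Of these, 72 were lower, against 48.2% of all genes, with a median log2 fold change of -0.17 against 0.007 over all genes. At an unadjusted p below 0.05 by edgeR, 7 were lower (background 2.25%) and 0 higher (background 2.87%). The number lower at that p was 36 without LPS + Tan replicate 4, against 4.56% of genes. It was 2 without LPS replicate 4 (2% of genes) or LPS + Tan replicate 1 (1.33%), and 3 without LPS replicate 2 (1.91%) or LPS + Tan replicate 2 (5.06%), so in the last setting it was below the share over all genes. Slfn3, a Schlafen family gene, was at 18.4, 20.3, 26.9 and 27.6 CPM in LPS and 13, 15, 15.3 and 16 CPM in LPS + Tan. Ifi205, of the family of DNA-binding p200 proteins, was at 54.2, 65.7, 54.9 and 64.2 CPM in LPS and 19.7, 33.9, 42.1 and 34.7 CPM in LPS + Tan. These 2 of 86 genes were the ones whose groups did not overlap, against 2.73% of all genes, and in both LPS + Tan replicate 4 was low with the rest. Log2 fold changes were -0.65 ± 0.14 for Slfn3 and -0.87 ± 0.19 for Ifi205, and the adjusted p was 0.836 for each in edgeR's quasi-likelihood test and 0.027 and 0.0131 in DESeq2. Trim30c, the next by p, was at -0.92 ± 0.35. Both Slfn3 and Ifi205 have close relatives in the mouse genome that can share reads.

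Markers of cell types that can respond to interferon or make it were summed in each sample. Plasmacytoid dendritic cell markers lay between 230.1 and 255 CPM in LPS and between 232 and 249.8 in LPS + Tan. Tcf4, which many cell types express, made up 95.4% to 97.1% of that sum, so it says little of these cells. The other 6 markers summed to between 6.9 and 10.8 CPM in LPS and between 7.43 and 10.7 in LPS + Tan, with Siglech, a defining marker, at 0.102 to 0.566 CPM over all samples and Ccr9 at 0.535 to 1.58. Monocyte markers lay between 2209 and 2947 CPM in LPS and between 2095 and 2843 in LPS + Tan. T and NK cell markers, 6 of 10 of them higher in LPS + Tan, lay between 175 and 371 CPM and between 137 and 381, and LPS + Tan replicate 4 was at 189. Neutrophil markers lay between 9149 and 12905 CPM and between 9396 and 10224. The ranges of both groups overlapped in each of these lists. Over all genes tested, 48.2% were lower in LPS + Tan, the background for the counts of markers higher or lower. Macrophage markers were higher in LPS + Tan in 11 of 12, with 687 to 857 CPM against 791 to 974, and erythroid markers were lower in 7 of 7, with 1428 to 3456 CPM against 1328 to 2178 and a median log2 fold change of -0.47, the farthest from 0 of the 10 marker lists. B cell markers were lower in 5 of 6, with 22.1 to 38.4 CPM in LPS against 20.6 to 29.3 and a median log2 fold change of -0.20, and epithelial markers were lower in 7 of 10. Cardiac and skeletal muscle markers were higher in 5 of 5 tested, with 122 to 157 CPM in LPS against 119 to 221 and a median log2 fold change of 0.28. Endothelial markers were higher in 4 of 7, with a median log2 fold change of 0.19. By edgeR's quasi-likelihood test, the endothelial receptor genes Kdr (0.37 ± 0.15) and Tek (0.51 ± 0.22) and the macrophage gene C1qa (0.28 ± 0.10) were higher at unadjusted p-values of 0.0364, 0.0433 and 0.0155, each with an adjusted p of 0.924. No listed marker analysed here was at 0 counts in all samples, and the part of cell composition in the members' levels was not tested.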

How the data were processed

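RNA-seq of lung was analysed in 4 LPS and 4 LPS + Tan samples, grouped by the labels, with 0 columns of sample values left without a sample. The authors deposited raw read counts per gene and FPKM values, in which a gene's count is scaled to its length and to the depth of the library. GRCm38 and mm10 are named in the submitters' processing notes. For the aligner, annotation, counter and strand setting, the sources used here give nothing. The study's methods name TRIzol extraction and a VAHTS library kit, whereas the labels name an RNeasy kit and another library kit.

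Counts were tested in R 4.3.3 with edgeR 4.0.16 (filterByExpr, TMM, quasi-likelihood test between the groups, no covariate, Benjamini-Hochberg adjustment over 15706 genes). The standard error was the size of the log2 fold change divided by the square root of F. CPM was scaled by TMM. No test was made over the members, which, like all gene lists used, were chosen with earlier results of these data known. Of 247 list entries, 225 were analysed here. Values in every sample were given for the 2 members with the highest FPKM of each role and the 6 with the largest change, and the 3 genes with the lowest p of each pathway list were named. Ifnb1, Ifnar1 and Ifnar2 were added, 1 further gene of this rule is not reported here, and Socs1, Cxcl9 and Cxcl10 were named after their values were seen.

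Alternatives were RLE scaling, library totals alone, DESeq2 1.42.0, no filter, at least 1 CPM in 4 samples, limma 3.58.1 on log2(FPKM + 1) and log2(FPKM + 0.1), a block for the replicate number, and leaving out single samples. The scripts were tested on simulated data. The squared deviation between samples of a group was 7.82 to 22.4 times that of sampling noise, so none was a repeated library. Promoters came from RefSeq (GRCm38.p6), and coding sequences, compared with Biopython 1.88, were the longest reading frames of the longest coding transcripts. With about equal depth, precision was set by the spread between samples, except for genes with few counts such as Ifnb1.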

Additional observations from a re-analysis of the deposited data

Results flagged for a closer look

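In 5 of 106 groups of 4 samples examined for the members and the named genes of the pathway, 1 sample lay far from the other 3, and chance alone gives about 5.3 such groups. The measure is the gap to the nearest sample as a share of the group's range, both on log2 CPM (log2 of CPM + 0.1 for genes that are not members), set against Dixon's critical value for 4 samples. The shares are given in parentheses after the CPM values. Ifit1 in LPS + Tan replicate 4 was at 227 CPM against 149 in the next sample (0.859). Oas2 in LPS replicate 4 was at 92.3 CPM against 66.9 (0.853). Ifng in LPS replicate 2 was at 3.55 CPM against 5.68 (0.877). Cxcl10, a chemokine induced by interferons, was at 530.5 CPM in LPS + Tan replicate 4 against 106 (0.895). Ifnb1 in LPS replicate 4 was at 0.0518 CPM against 0.0261 (0.967), which is 2 counts against 1.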

How the results depend on the processing

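The median change over all members was below 0 in all 16 alternatives, while without LPS replicate 4 the IFIT median turned to 0.12 and Bst2 to 0.022. With 1 sample left out, the members' median lay between -0.34 and -0.076 and the number lower between 25 and 34. Their number lower at an unadjusted p below 0.05, 1 with all samples, was 2 with RLE scaling (2.33% of all genes) or no filter (2.31%) and 0 to 16 with 1 sample left out. For the other interferon-stimulated genes that number, 7 with all samples, was 4 with library totals (1.52% of all genes), 11 with no filter (2.31%) and 2 to 36 with 1 sample left out (1.33% to 5.06%). Over all genes tested, same-numbered samples correlated at 0.132, -0.0353, -0.153 and 0.0233 in their deviations from group means. There, 1 of 4 LPS samples correlated best with its own number. Among the members, the median level rose from replicate 1 to replicate 4 in both groups. Replicate 4 was the highest of its group in 32 of 34 members in LPS and in 29 of 34 in LPS + Tan. Whether replicate numbers pair the samples was not tested for the members. With the replicate block, 10 members and 19 of the other genes were lower at an unadjusted p below 0.05, against 429 of 15706 genes (2.73%), and 0 members had an adjusted p below 0.05.

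Over all genes, 55 were higher at the study's thresholds with all samples, against 220 with no filter, 18 with 1 CPM in 4 samples, 113 with DESeq2, 5 and 19 with limma and pseudocounts of 1 and 0.1, and 37 to 113 with 1 sample left out. In the same order, 47 were lower, against 198, 23, 111, 9, 21 and 38 to 125. The number lower at an unadjusted p below 0.05, 353, was 569 with no filter and 212 (without LPS + Tan replicate 1) to 806 (without LPS + Tan replicate 2), and 727 without LPS + Tan replicate 4. Leaving out LPS + Tan replicate 2 also gave the largest numbers at the study's thresholds, 113 higher and 125 lower, and LPS replicate 1 (84 and 71), LPS replicate 4 (88 higher) and LPS + Tan replicate 4 (102 lower) moved them by over 1.5 times. The number at an adjusted p below 0.05, 0, was 35 with DESeq2 and 0 to 1 with 1 sample left out, with the 1 without LPS + Tan replicate 4.

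Oasl1 turned higher with library totals (0.016), limma (0.043 and 0.046) and the replicate block (0.0037). With 1 sample left out, some log2 fold changes changed sign, with ranges of -0.20 to 0.26 for Oasl1, -0.18 to 0.16 for Ifit1, -0.46 to 0.19 for Ifit3, -0.30 to 0.073 for Ifit3b, -0.17 to 0.019 for Ifih1, -0.19 to 0.033 for Dhx58, -0.33 to 0.095 for Oas1g, -0.29 to 0.022 for Bst2 and -0.43 to 0.08 for Cmpk2. The causes of these moves were not tested. Another scaling moved the median of all genes by at most 0.042. At these depths counting error limits Ifnb1 and the other type I interferon genes, and not the members.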

Other observations

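Interferon-induced chemokines that attract T cells through the receptor Cxcr3 were named after their values were seen. Cxcl10 was at 283, 291, 454 and 345 CPM in LPS and 106, 92.2, 87.6 and 530.5 CPM in LPS + Tan. Cxcl9, which responds mainly to interferon gamma, was at 2105, 2775, 3142 and 3173 CPM in LPS and 960, 1979, 1462 and 3205 CPM in LPS + Tan. In both genes LPS + Tan replicates 1 to 3 were below every LPS sample, as far as 87.6 CPM for Cxcl10 and 960 for Cxcl9, and replicate 4 was above every one. The log2 fold change of Cxcl10 was -0.75 ± 0.55 (SE) with all samples and -1.85 without LPS + Tan replicate 4. For Cxcl9 it was -0.56 ± 0.32 and -0.93. By edgeR's quasi-likelihood test the adjusted p with all samples was 0.936 for Cxcl10 and 0.926 for Cxcl9.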
